A study of Mus musculus with 6 samples.

Results

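The genes described here are Trp53, which encodes the transcription factor p53, and 9 genes that p53 is known to activate, Cdkn1a, Mdm2, Ccng1, Phlda3, Sesn2, Zmat3, Eda2r, Aen and Trp53inp1. They were chosen by name, and all 10 were found by symbol among the 55401 genes of the deposited count table. Counts were high enough to test 9 of the 10 among 19554 tested genes, and Eda2r was the exception. Microglia were isolated from digested brains on a Percoll gradient and selected with magnetic beads for the myeloid surface protein CD11b, and their RNA was sequenced. There were 3 libraries from MRL/lpr mice, a lupus model homozygous for the lpr mutation of the death receptor gene Fas, and 3 from MRL/mpj mice, the parental strain with intact Fas. All animals were untreated, and the labels give an age of 6 weeks and brain as the tissue for every library. The comparison asks how the transcriptome of microglia differs between lupus mice and their controls. The sources give the number of samples per strain but not whether a library was made from 1 animal or from a pool, and p-values measure the spread between these libraries.

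p53 is held at a low level in unstressed cells because Mdm2, a ubiquitin ligase, marks it for degradation, and DNA damage and other stresses release it. Stabilised p53 binds a response element built from a repeated decamer and switches on genes that halt the cell cycle, induce apoptosis, repair DNA, tune metabolism and, through Mdm2 itself, end the response. Because p53 is regulated mainly as a protein, the level of Trp53 mRNA is not a measure of its activity. Several of its targets, Cdkn1a foremost, are also induced without p53 by cytokine and immediate-early signals.

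The promoters are shown here because Cdkn1a and Mdm2 are the members called different between the strains in the test given below. The Mdm2 call depended on the analysis. RefSeq promoter windows (GRCm38.p6, from 250 bases before to 50 bases after a transcription start, in the reference strain and not in MRL mice) were at hand for 8 of the members, 10 windows in all. Both strands were searched for the p53 decamer. It matched in 6 of the 10 windows, belonging to 5 genes, with the same Aen match lying in 2 windows. The shares were 8.36% of the 32851 windows of all genes and 18.6% of the 59 windows of the other p53 targets listed below. The members other than Trp53 were chosen as genes that p53 activates. A higher share was therefore likely beforehand and is no result about them. Each line gives 30 bases on the strand of the gene, 5′ to 3′, with the match in capitals.
Cdkn1a, chr17:29090896-29090925, plus strand: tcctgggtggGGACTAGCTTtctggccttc
Cdkn1a, chr17:29090918-29090947, plus strand: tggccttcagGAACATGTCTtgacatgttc
Mdm2, chr10:117710925-117710954, minus strand: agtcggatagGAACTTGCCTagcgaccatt
Ccng1, chr11:40755452-40755481, minus strand: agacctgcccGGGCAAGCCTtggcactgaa
Aen, chr7:78895927-78895956, plus strand: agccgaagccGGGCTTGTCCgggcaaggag
Trp53, chr11:69580274-69580303, plus strand: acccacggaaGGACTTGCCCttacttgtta

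Cdkn1a has a distal and a proximal annotated start, at 29090979 and 29093769 on chromosome 17. Both of its matches lie before the distal start, 73 and 51 bases upstream, and the window of the proximal start held none. The 250 bases before the distal start (chr17:29090729-29090978, plus strand) are printed whole because they hold 2 matches of the decamer. The bases directly after the second match also fit the decamer except at their first base, and were not counted as a match.
Cdkn1a distal promoter: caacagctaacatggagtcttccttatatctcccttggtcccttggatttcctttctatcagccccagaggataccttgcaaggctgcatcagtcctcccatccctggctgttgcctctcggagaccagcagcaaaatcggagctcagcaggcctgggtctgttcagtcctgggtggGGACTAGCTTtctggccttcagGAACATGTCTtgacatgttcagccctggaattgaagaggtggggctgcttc
The matches of Mdm2, Ccng1 and Trp53 lie 186, 185 and 75 bases before their starts. The Aen match lies 121 bases before one annotated start and 10 bases after another. The spaced palindrome TTCNNNGAA, which STAT factors recognise, and TGANTCA, which AP-1 factors recognise, matched in 0 of the 10 windows, against 8.30% and 7.81% of all windows. A match is a description of the reference sequence and not evidence of binding, and a missing match says only that these letters are not in the window.

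The libraries held 45481609 to 48199739 counts for MRL/lpr and 47826322 to 49846634 for MRL/mpj. Multiples of 4 were overrepresented among the low counts (1234 genes of MRL/lpr replicate 1 had 4 counts and 254 had 5), for a reason that is not known. The mitochondrial share was 3.06% to 3.49% in MRL/lpr and 5.84% to 6.38% in MRL/mpj, and a single gene, CT010467.1, held 6.38% of MRL/lpr replicate 3. The 8 microglia markers were abundant in every library, and 2 of them were lower in MRL/lpr, with a summed level of 21200 to 24200 CPM (counts scaled to a common library size with TMM) in MRL/lpr and 24700 to 25500 CPM in MRL/mpj. Markers of T cells (4 of 5 higher) summed to 12.5 to 17.8 against 3.24 to 4.03 CPM, those of ependyma and choroid plexus (2 of 5 lower) to 339 to 353 against 1000 to 1080 CPM, and those of neurons (2 of 5 lower) to 9.77 to 13.7 against 22.5 to 25.4 CPM. Markers of plasma cells (2 of 4 higher) summed to 20.5 to 22.4 against 5.98 to 7.16 CPM, of monocytes (2 of 4 higher) to 52.2 to 65.2 against 33.6 to 38.8 CPM, of neutrophils (3 of 6 higher) to 696 to 819 against 552 to 619 CPM, and of oligodendrocytes (2 of 5 lower) to 84.0 to 99.3 CPM in MRL/lpr, below each MRL/mpj library (up to 152 CPM). Of the endothelial and erythrocyte markers 1 each was higher, of the border macrophage markers 1 was lower, and none of the B cell or astrocyte markers was called in edgeR (2 of each at an unadjusted p under 0.05, and 2 and 0 with DESeq2). Over all genes 11.1% were higher and 9.06% lower, the shares to set beside each marker count here. Some uncalled markers went against their group. Examples are Ccr2 of monocytes (log2 fold change -0.26), Cd79b of B cells (-0.30), Mag of oligodendrocytes (0.19) and Ccdc153 of ependyma (0.33). Xist, the RNA of the inactive X chromosome, had 231, 240 and 213 CPM in MRL/lpr and 0.564, 0.760 and 0.519 CPM in MRL/mpj. The Y-linked gene Ddx3y had 106, 122 and 88.3 CPM in MRL/lpr and 107, 128 and 145 CPM in MRL/mpj. Of the other Y-linked genes, Kdm5d had 23.9, 24.5 and 22.1 against 34.4, 36.3 and 35.2 CPM and fell by 0.59 on the log2 scale (adjusted p = 0.00136 from edgeR). Eif2s3y was also lower in each MRL/lpr library, with a log2 fold change of -0.34 (adjusted p = 0.0555 from edgeR), and Uty overlapped (0.07, adjusted p = 0.777 from edgeR). All MRL/lpr libraries thus held both Xist and Y-linked RNA, and all MRL/mpj libraries held Y-linked RNA and almost no Xist. The methods of the study describe female mice, which Y-linked RNA does not match. The labels give no sex, and sex and strain cannot be told apart in any result. In RNA from many cells at once, fewer cells of a type and less RNA per cell cannot be told apart either.

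Among the members, Cdkn1a was 2.57-fold higher and Mdm2 1.32-fold higher in MRL/lpr, whereas Trp53 itself had nearly the same level in both strains. With edgeR's quasi-likelihood test and Benjamini-Hochberg adjustment over all tested genes, 2 of the 9 tested members were higher at an adjusted p under 0.05, where 11.1% of all genes were. No member was lower (0 of 9, also 0 at an unadjusted p under 0.05 and 0 with DESeq2), where 9.06% of all genes were. With the fold minimum of the study (a log2 fold change of 1 or more in either direction), Cdkn1a alone remained, where 4.67% of all genes were called higher. The libraries of the strains did not overlap in 4 members (Cdkn1a, Mdm2 and Phlda3 higher, Ccng1 lower), as in 39.0% of all genes. With only 9 tested members these shares are too coarse to compare closely with those of all genes. The median log2 fold change was 0.01 over the members and -0.01 over all genes. The remaining 7 tested members passed the test in neither direction.

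**Figure D1:**
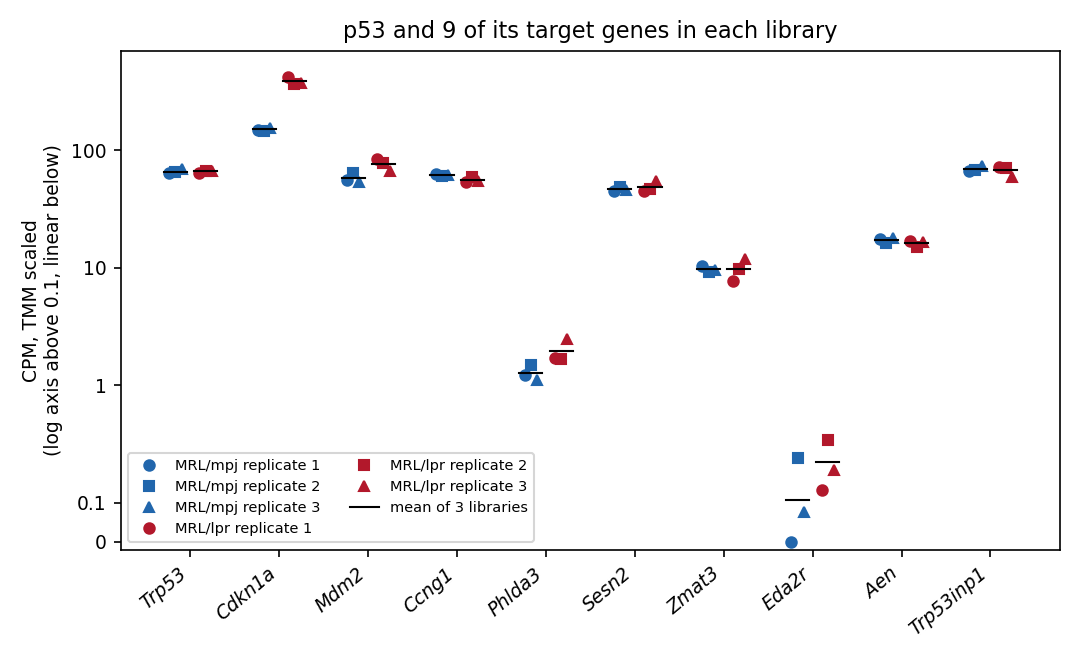
Level of Trp53 and 9 p53 targets in each library, in TMM-scaled CPM (y axis, logarithmic above 0.1 and linear below). Blue symbols are the 3 MRL/mpj libraries, red symbols the 3 MRL/lpr libraries and bars the means. The Cdkn1a libraries of MRL/lpr (365 to 417 CPM) stand well above those of MRL/mpj (145 to 155 CPM), while the Trp53 libraries lie together.

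Trp53 (chr11:69580359-69591873, plus strand, GENCODE M21 on GRCm38) had 64.4, 66.1 and 66.8 CPM in the MRL/lpr libraries and 63.7, 64.5 and 68.4 CPM in the MRL/mpj libraries. The MRL/lpr libraries lay within the range of the MRL/mpj libraries. The fitted log2 fold change was 0.01 (standard error 0.07, 95% interval -0.16 to 0.17, adjusted p = 0.976 from edgeR). It was among the most evenly measured members, and its mean level per length was 13.9 FPKM in MRL/lpr and 15.1 FPKM in MRL/mpj.

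Cdkn1a (chr17:29090976-29100727, plus strand) encodes p21, which binds and blocks cyclin-dependent kinases and is the main effector of p53-dependent G1 arrest. Its counts were 19600, 17192 and 15536 in MRL/lpr and 7646, 7266 and 8057 in MRL/mpj, or 417, 365 and 372 CPM against 149, 145 and 155 CPM. Every MRL/lpr library was above every MRL/mpj library, and the gap between the groups was far wider than either group. The means were 385 ± 28.1 CPM and 150 ± 4.82 CPM (SD, n = 3 each). The log2 fold change was 1.36 (standard error 0.07, 95% interval 1.20 to 1.52, adjusted p = 2.37e-06 from edgeR). Cdkn1a ranked 82 of 19554 genes by p-value but 1082 by fold change, so it combined a moderate difference with a small error. It was called in all 17 alternative analyses, with log2 fold changes of 1.24 to 1.40. Of the exon bases of Cdkn1a, 273 (7.68%) are also covered by an uncharacterised transcript annotated on the opposite strand, and the strand setting of the authors' counting is not given in the sources used here.

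Mdm2 (chr10:117688875-117710758, minus strand), the ubiquitin ligase that closes the feedback on p53, had 84.7, 77.5 and 65.9 CPM in MRL/lpr and 55.8, 64.1 and 53.3 CPM in MRL/mpj. The groups did not overlap, but MRL/lpr replicate 3 (65.9 CPM) lay close to MRL/mpj replicate 2 (64.1 CPM). The log2 fold change was 0.40 (standard error 0.11, 95% interval 0.14 to 0.65, adjusted p = 0.0335 from edgeR). The direction held in all 17 alternatives and the call in 11 of them. The call was lost with scaling by library size only (0.28, adjusted p = 0.153) and with limma on log2 FPKM (0.27, adjusted p = 0.195). It was also lost without MRL/lpr replicate 1, MRL/lpr replicate 2, MRL/mpj replicate 1 or MRL/mpj replicate 3, where the log2 fold change was 0.31, 0.38, 0.37 and 0.34.

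Ccng1 (chr11:40748552-40755311, minus strand) encodes cyclin G1, which recruits the phosphatase PP2A and acts with Mdm2 in restraining p53. It had 53.6, 58.6 and 54.4 CPM in MRL/lpr and 63.1, 60.2 and 61.2 CPM in MRL/mpj. All MRL/lpr libraries were below all MRL/mpj libraries, by a small margin. The log2 fold change was -0.15 (standard error 0.08, 95% interval -0.32 to 0.03, adjusted p = 0.229 from edgeR). With scaling by library size only it was -0.27 (adjusted p = 0.0469), and the median of all genes moved to -0.13 under that scaling.

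**Figure D2:**
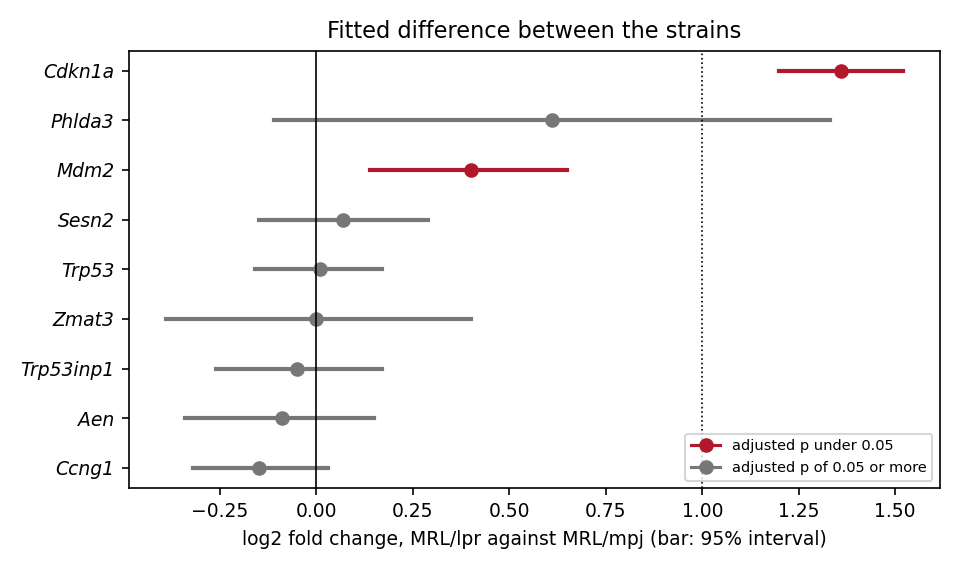
Fitted log2 fold change of MRL/lpr against MRL/mpj (x axis) for the 9 tested members, with bars for 95% intervals from edgeR and the dotted line at a log2 fold change of 1. Red marks an adjusted p under 0.05. Cdkn1a (1.36) lies past the line, Mdm2 (0.40) is the other called member, and the interval of Phlda3 (-0.11 to 1.33) is the widest but crosses 0.

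Among the effectors of apoptosis and growth control, Phlda3 (chr1:135766119-135769136, plus strand), whose pleckstrin homology domain competes with the kinase Akt for membrane lipids, was scarce. It had 80, 79 and 103 counts in MRL/lpr and 63, 74 and 58 counts in MRL/mpj, or 1.70, 1.68 and 2.46 CPM against 1.23, 1.48 and 1.11 CPM. The groups did not overlap, and MRL/lpr replicate 3 was the highest library. The log2 fold change was 0.61 (standard error 0.32, 95% interval -0.11 to 1.33, adjusted p = 0.229 from edgeR), so at this depth a difference as large as that of Mdm2 could not be detected. Aen (chr7:78895854-78911209, plus strand), a nuclease that enhances apoptosis, had 16.7, 15.1 and 16.4 CPM in MRL/lpr and 17.4, 16.1 and 17.9 CPM in MRL/mpj. The libraries overlapped, with a log2 fold change of -0.09 (95% interval -0.34 to 0.15, adjusted p = 0.632 from edgeR).

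Trp53inp1 (chr4:11156431-11174379, plus strand) encodes a nuclear protein that assists p53 and takes part in autophagy. It had 71.9, 70.2 and 58.8 CPM in MRL/lpr and 66.1, 67.9 and 73.5 CPM in MRL/mpj. MRL/lpr replicate 3 was the lowest library and the other MRL/lpr libraries lay among those of MRL/mpj. The log2 fold change was -0.05 (95% interval -0.26 to 0.17, adjusted p = 0.796 from edgeR), and 0.04 without MRL/lpr replicate 3.

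Eda2r (chrX:97333840-97377216, minus strand), a receptor of the tumour necrosis factor family for ectodysplasin A2, was close to absent. It had 6, 16 and 8 counts in MRL/lpr and 0, 12 and 4 counts in MRL/mpj, which overlap. Such counts were too low to test, and an absence of difference cannot be read from them. Its place on the X chromosome sets it beside the Xist difference given above.

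The metabolic and RNA-binding members showed no detectable difference. Sesn2 (chr4:132492032-132510501, minus strand) encodes sestrin 2, a leucine sensor that restrains mTORC1. It had 44.7, 46.5 and 54.6 CPM in MRL/lpr and 44.7, 48.5 and 45.4 CPM in MRL/mpj. The first pair of MRL/lpr libraries lay at the MRL/mpj level and MRL/lpr replicate 3 above it, with a log2 fold change of 0.07 (95% interval -0.15 to 0.29, adjusted p = 0.672 from edgeR). Zmat3 (chr3:32334792-32366014, minus strand), a zinc finger protein that binds RNA and influences splicing, had 7.70, 9.71 and 11.8 CPM in MRL/lpr and 10.4, 9.22 and 9.46 CPM in MRL/mpj. The MRL/lpr libraries spread to both sides of the MRL/mpj libraries, with a log2 fold change of 0.00 (95% interval -0.39 to 0.40, adjusted p = 0.992 from edgeR).

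**Figure D3:**
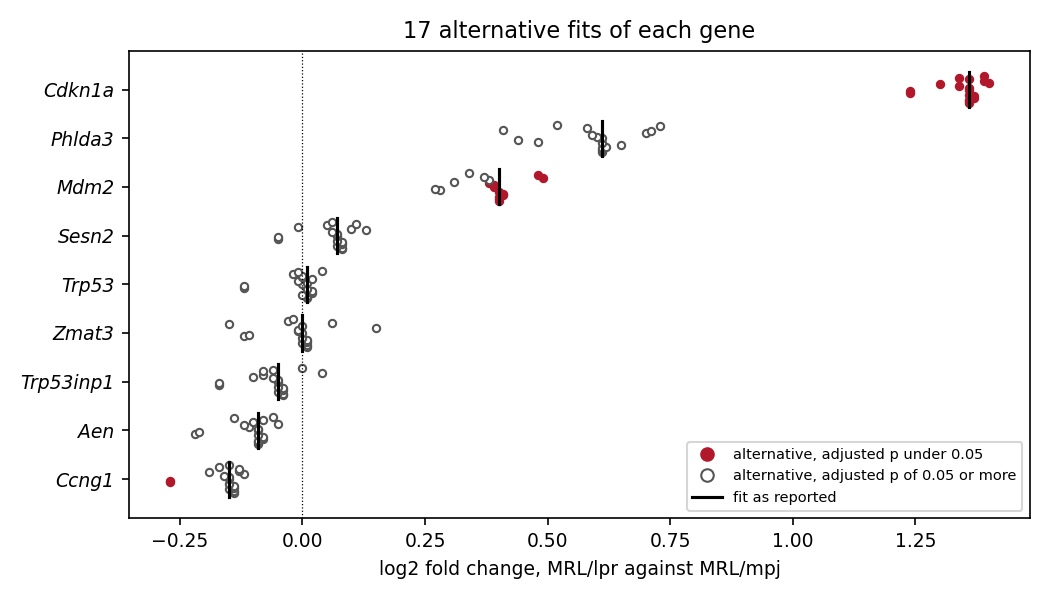
Log2 fold change of each tested member (x axis) in 17 alternative analyses, with filled red points for an adjusted p under 0.05, open points for the others and a black bar for the value reported. Cdkn1a is filled throughout (1.24 to 1.40), Mdm2 has both kinds of point (0.27 to 0.49), and the points of Trp53, Sesn2, Zmat3 and Trp53inp1 fall on both sides of 0.

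Per length, Cdkn1a was the most abundant member in both strains, at 92.7 ± 8.46 FPKM in MRL/lpr and 39.2 ± 1.25 FPKM in MRL/mpj (SD, n = 3 each). In MRL/lpr it was followed by Trp53 (13.9 FPKM), Ccng1 (13.5 FPKM), Mdm2 (12.8 FPKM) and Sesn2 (11.9 FPKM), and each of these overlapped its neighbour in the order. In MRL/mpj the order was Ccng1 (16.3 FPKM), Trp53 (15.1 FPKM), Sesn2 (12.4 FPKM) and Mdm2 (10.6 FPKM), of which only Mdm2 overlapped the next gene, Trp53inp1 (9.93 FPKM). Trp53inp1 in MRL/lpr had 8.86 FPKM. The low members were Aen (2.36 FPKM in MRL/lpr and 2.74 FPKM in MRL/mpj), Phlda3 (1.06 and 0.750 FPKM), Zmat3 (0.727 and 0.787 FPKM) and Eda2r (0.0333 and 0.0167 FPKM). Only Zmat3 and Phlda3 in MRL/mpj overlapped among these.

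The wider set of p53 targets moved in both directions. Of 55 other target genes, all tested, 12 of 55 were higher in MRL/lpr and 7 of 55 were lower. Over all genes 11.1% were higher and 9.06% lower. The libraries of the strains did not overlap in 16 of the 55 that were higher and 14 that were lower. Over all genes, 39.0% did not overlap in either direction. The median log2 fold change of the 55 was -0.00. Genes of arrest and the cell cycle gave 6 of the 12 increases, with 6 of their 10 genes higher and 1 lower. Gtse1, Ckap2 and E2f7 had the largest log2 fold changes of these, at 2.73 (adjusted p = 0.000178), 2.12 (adjusted p = 0.000390) and 2.05 (adjusted p = 0.00136, all from edgeR). With limma on log2 FPKM, which understates changes of scarce genes, E2f7 was at 1.27. Gtse1 had 6.02, 4.72 and 5.46 CPM in MRL/lpr and 0.953, 0.940 and 0.538 CPM in MRL/mpj, without overlap. All 3 genes also rise in dividing cells, Gtse1 and Ckap2 at the spindle in mitosis and E2f7 as a repressor of E2F targets in S phase. Beside them, the 15 mitotic genes examined were all higher, led by Cenpe (2.52), Top2a (2.22), Mki67 (2.16) and Tpx2 (2.09) on the log2 scale, with a summed level of 244 to 262 CPM in MRL/lpr and 61.0 to 66.9 CPM in MRL/mpj, and the part of dividing cells in these differences was not tested. Btg2, an antiproliferative gene that is also an immediate-early gene, had 3060, 3070 and 2690 CPM against 1280, 1390 and 1310 CPM and rose by 1.15 on the log2 scale (adjusted p = 5.46e-06 from edgeR). Btg2 and the genes in the next paragraph other than Zfp365 and Mdm4 were named after their values were seen.

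Among the 12 apoptosis genes, 2 were higher and 1 lower. Over all genes 11.1% were higher and 9.06% lower, the shares to set beside each group in this paragraph. Bbc3, which encodes the killer protein PUMA, had 143, 140 and 151 CPM in MRL/lpr and 87.5, 89.3 and 86.4 CPM in MRL/mpj and rose by 0.72 on the log2 scale (adjusted p = 6.88e-05 from edgeR). Perp, a membrane protein of cell junctions and apoptosis, had 13.6, 13.3 and 9.26 CPM against 31.7, 35.3 and 32.5 CPM and fell by 1.46 (adjusted p = 0.000145 from edgeR). The partner of PUMA at the mitochondrion, Bax, had a log2 fold change of 0.16 (adjusted p = 0.492 from edgeR), and Fas, the gene that carries the lpr mutation and is itself a p53 target, one of -0.06 (adjusted p = 0.887 from edgeR). Fas had 461, 282 and 298 counts in MRL/lpr and 426, 432 and 362 counts in MRL/mpj, which overlap. Whether these counts come from a mutant or an intact transcript was not tested, and they were not used to check the labels. Of the 8 genes of DNA repair and nucleotide supply, 0 were higher (0 also at an unadjusted p under 0.05 in edgeR and with DESeq2), and Rrm2b, the p53-inducible subunit of ribonucleotide reductase, fell by 1.34 (9.21, 7.50 and 9.45 CPM against 20.9, 20.8 and 24.7 CPM, adjusted p = 0.000134 from edgeR). The 10 metabolic genes gave 1 higher and 1 lower, and the 15 feedback, secreted and other targets gave 3 higher and 3 lower. The largest change of the last group was that of Zfp365, a protein of genome stability and neurons, which fell by 1.62 (2.40, 2.19 and 1.72 CPM against 5.90, 6.86 and 6.71 CPM, adjusted p = 0.000633 from edgeR). Gdf15, a secreted stress cytokine, fell by 0.74 (adjusted p = 0.00124 from edgeR). Mdm4, the partner of Mdm2, had a log2 fold change of 0.25 (adjusted p = 0.0913 from edgeR).

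**Figure D4:**
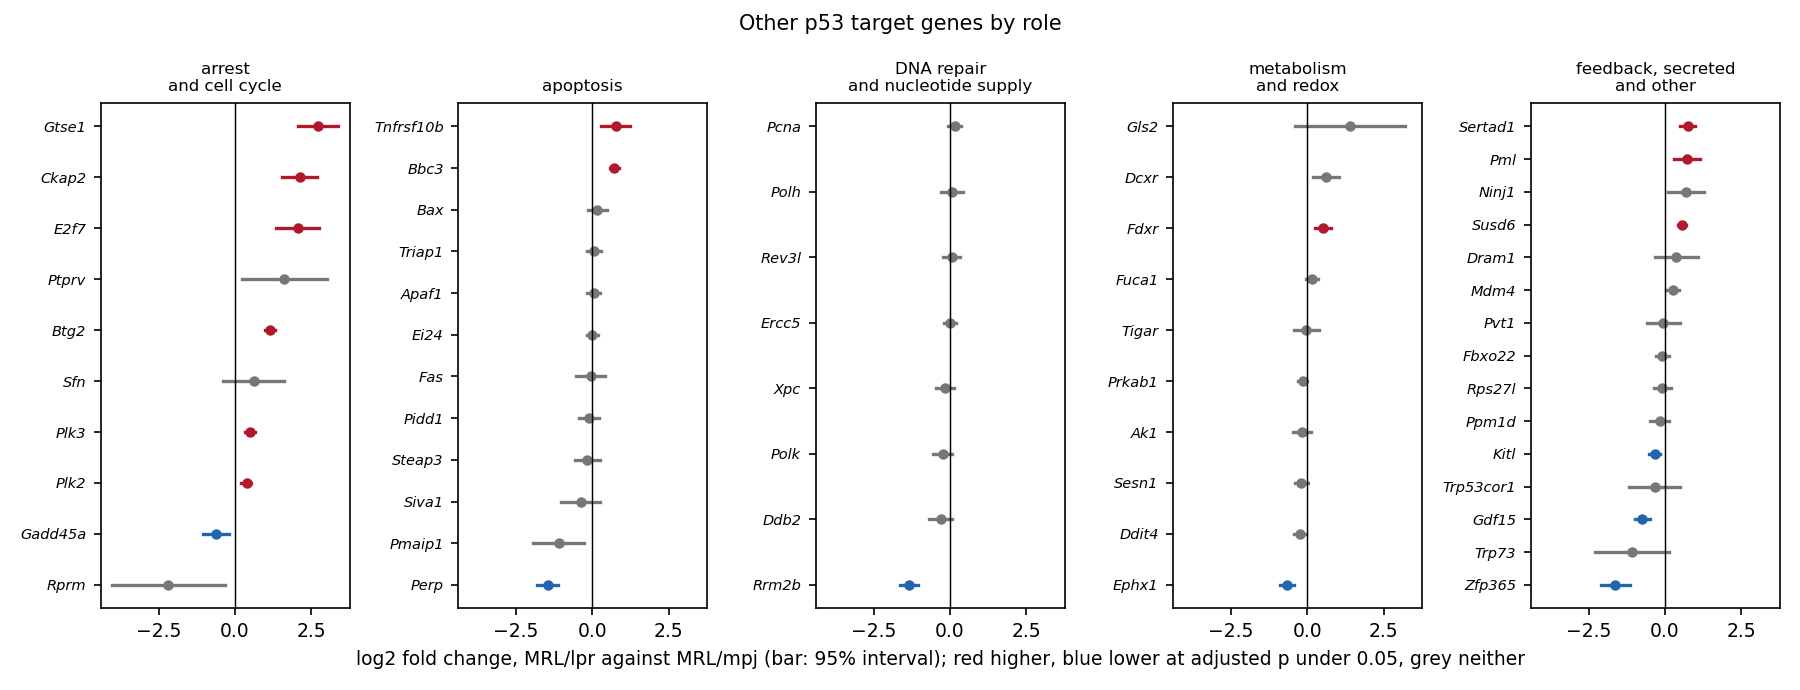
Log2 fold change of MRL/lpr against MRL/mpj (x axis) for the 55 other p53 targets, grouped by role, with 95% intervals from edgeR. Red is higher and blue lower at an adjusted p under 0.05, grey neither. Red points gather in the arrest and cell cycle panel (6 of 10), and blue points are spread over all 5 panels.

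Of 16 regulators of p53, 5 were higher and 0 lower in edgeR (1 lower at an unadjusted p under 0.05, and 0 with DESeq2). Over all genes 11.1% were higher and 9.06% lower in edgeR. With library size only 2 regulators were higher. The checkpoint kinases Chek1 and Chek2, which phosphorylate p53 and its regulators after DNA damage, were among the 5 called in edgeR. Chek1 had 3.91, 3.78 and 3.59 CPM in MRL/lpr and 1.44, 1.44 and 1.63 CPM in MRL/mpj and rose by 1.32 on the log2 scale (adjusted p = 0.00348 from edgeR). Chek2 had 17.8, 17.1 and 13.5 CPM against 8.33, 10.8 and 9.53 CPM and rose by 0.76 (adjusted p = 0.00764 from edgeR). Chek1 also rises in dividing cells, and the part of such cells in its difference was not tested. Atm, the kinase upstream of Chek2, had a log2 fold change of -0.12 (adjusted p = 0.592 from edgeR). Cdkn2a, whose product ARF inhibits Mdm2, had 45, 31 and 37 counts in MRL/lpr and 0, 70 and 38 counts in MRL/mpj, a spread too wide to read. Wrap53, the neighbour of Trp53 on the other strand, had a log2 fold change of 0.31 (adjusted p = 0.219 from edgeR). Hipk2 and the acetyltransferase gene Crebbp rose by 0.43 (adjusted p = 0.0495) and 0.37 (adjusted p = 0.00639, both from edgeR). The Hipk2 call held in 9 of the 17 alternatives (0.31 to 0.53). It was lost with library size only, upper quartile scaling, limma on log2 FPKM and dispersions that were not robust. Leaving out MRL/lpr replicate 1 or 3, or MRL/mpj replicate 2 or 3, also lost the Hipk2 call. That of Crebbp was lost with library size only and with limma on log2 FPKM.

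The paralogs of the members were compared to see whether a difference was shared within a family. Of 17 paralogs, 2 were higher and 0 lower in edgeR (0 lower also at an unadjusted p under 0.05 and with DESeq2). Over all genes 11.1% were higher and 9.06% lower, so the paralog increases lie near the share of all genes. Phlda1, a paralog of Phlda3 and an immediate-early gene, had 99.5, 97.2 and 88.1 CPM in MRL/lpr and 36.1, 37.2 and 37.5 CPM in MRL/mpj and rose by 1.36 (adjusted p = 4.51e-06 from edgeR). Isg20, an interferon-induced exonuclease related to Aen, had 470, 487 and 454 counts against 183, 124 and 163 counts and rose by 1.77 (adjusted p = 0.000161 from edgeR). The other inhibitors of the Cdkn1a family did not pass the test. Cdkn1b, which encodes p27, had a log2 fold change of 0.20 (95% interval -0.03 to 0.44, adjusted p = 0.227 from edgeR), and Cdkn1c, which encodes p57, one of 0.25 (95% interval -0.05 to 0.55, adjusted p = 0.241 from edgeR). Both intervals lie below that of Cdkn1a (1.20 to 1.52). The sestrins Sesn1 and Sesn3 had log2 fold changes of -0.20 and -0.01, and Ccng2 and Trp53inp2 had 0.18 and 0.20, none of them called. Isg20l2, Zmat1 and Zmat5 had -0.04, -0.21 and 0.28. Trp63, Trp73, Phlda2, Zmat4 and Edar had mean levels under 3 CPM in both strains and were not called.

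Of 18 genes of G1/S control, the step that p21 blocks, 5 were higher, 0 lower and 13 neither in edgeR. Also at an unadjusted p under 0.05 and with DESeq2, 0 were lower. Over all genes 11.1% were higher and 9.06% lower in edgeR. With library size only 3 of the 18 were higher. Cdkn2c, another inhibitor of cyclin-dependent kinases, had 14.5, 13.3 and 12.7 CPM in MRL/lpr and 5.49, 7.56 and 6.00 CPM in MRL/mpj and rose by 1.09 (adjusted p = 0.00128 from edgeR). The genes E2f1, Rbl1 and Ccnd2, which drive or restrain entry into S phase, rose by 0.88, 0.59 and 0.45 (adjusted p = 0.0252, 0.00738 and 0.0135 from edgeR). The E2f1 call held in 11 of the 17 alternatives. It was lost with limma on log2 FPKM, without MRL/lpr replicate 1 or 3 and without any one MRL/mpj library. That of Ccnd2 held in 12 and was lost with library size only and with limma on log2 FPKM. Leaving out MRL/lpr replicate 1, MRL/mpj replicate 1 or MRL/mpj replicate 2 also lost the Ccnd2 call. The Rbl1 call was lost only with limma on log2 FPKM. Higher Cdkn1a stood beside higher levels of all 15 mitotic genes in the same libraries. Of the 18 G1/S genes 13 passed the test in neither direction, and the called ones included the inhibitor Cdkn2c. Whether the same cells carried Cdkn1a and the mitotic genes cannot be read from bulk RNA.

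Other gene lists were also higher in MRL/lpr. Over all genes 11.1% were higher, and these lists were chosen with earlier results of these data known. All 12 interferon response genes were higher, with a median log2 fold change of 1.45 and a summed level of 639 to 754 CPM in MRL/lpr against 256 to 266 CPM in MRL/mpj. Ifit3, Irf7, Usp18 and Mx1 rose most, by 3.30, 2.86, 2.72 and 2.69. All 12 genes known to rise when tissue is dissociated were higher as well, with a median of 0.92 and 45400 to 51600 against 26300 to 27800 CPM. Among the latter, Ier2, Hspa1a, Junb and Fosb rose most, by 1.17, 1.15, 1.08 and 1.02. The part of these signals, of other cell types and of sex in the Cdkn1a and Mdm2 differences was not tested.

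**Figure D5:**
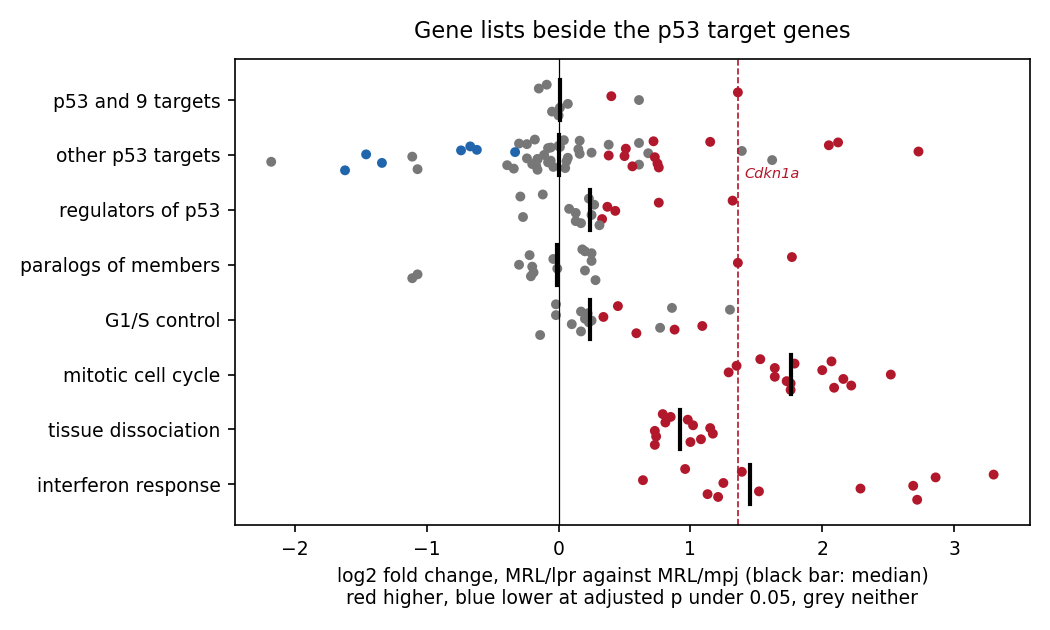
Log2 fold change of MRL/lpr against MRL/mpj for every tested gene of 8 lists (x axis), with a black bar at each list's median and a dashed line at the value of Cdkn1a (1.36). Red is higher and blue lower at an adjusted p under 0.05, grey neither. The members and the other p53 targets centre near 0 and the regulators of p53 at 0.24. The mitotic (1.76), interferon (1.45) and dissociation (0.92) lists lie wholly to the right of 0.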

How the data were processed

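RNA-seq data from CD11b-selected microglia of both strains (3 libraries each) were analysed. The authors deposited raw whole-number counts per gene, and FPKM values per library made from counts, gene length and depth. Their methods name Cutadapt, HISAT2 and DESeq2, and the submitters' processing notes name cutadapt 1.9.3, HISAT2 2.0.4, Cuffdiff 2.2.1, Cufflinks and GRCm38. The counting tool, strand setting and annotation are not given in the sources used here. The labels describe removal of ribosomal RNA, and the methods purification of mRNA, so levels of unpolyadenylated RNA are uncertain. The methods describe female mice without naming the animals sequenced, while every library held Y-linked RNA.

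Identifiers were matched to symbols in GENCODE M21, which named 55141 of 55401. The counts were tested with edgeR 4.0.16 in R 4.3.3 (filterByExpr with a minimum count of 10, TMM, robust quasi-likelihood F test, no covariate, Benjamini-Hochberg over 19554 genes). The common biological coefficient of variation was 0.26. CPM was computed from the counts with TMM scaling. Total counts of 45481609 to 49846634 per library limit precision mainly for genes near the filter. Alternatives used DESeq2 1.42.0, other scalings, filters and dispersions, counts divided by 4, a replicate block, each library left out, and limma 3.58.1 on log2(FPKM + 0.1). The edgeR step was tested on counts simulated from its own fitted model, without the excess of multiples of 4. That test checks the code and not how well the model describes these data.

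The members, gene lists and tests were chosen with earlier results of these data known. The rule for named genes covered the members, the 4 largest called changes of each other list, all paralogs, Mdm4, Atm, Chek1, Chek2, Cdkn2a, Wrap53 and Xist; other genes, among them Fas and the Y-linked genes, were named after their values were seen.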

Additional observations from a re-analysis of the deposited data

How the results depend on the processing

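Cdkn1a kept its direction, its call and its place past the fold minimum in all 17 alternatives. The number of members called higher was 1 instead of 2 with library size only and with limma on log2 FPKM, and 1 to 2 when single libraries were left out, Mdm2 being the gene lost. The number called lower was 1 instead of 0 with library size only and with limma on log2 FPKM, the gene being Ccng1 (-0.27 in both, adjusted p = 0.0469 and 0.0446), and 0 whichever library was left out. The other targets called lower numbered 11 with limma on log2 FPKM instead of 7. Both of these settings moved the median of all genes from -0.01 to -0.13 and -0.12, so members near 0 turned negative: Trp53 to -0.12 in both, Sesn2 to -0.05 in both, and Zmat3 to -0.12 and -0.11. With upper quartile scaling Trp53 and Zmat3 were at -0.01. Leaving out single libraries gave -0.02 to 0.04 for Trp53 (0.00 without MRL/lpr replicate 3, -0.02 without MRL/mpj replicate 1, -0.01 without MRL/mpj replicate 2), -0.01 to 0.13 for Sesn2 and -0.10 to 0.04 for Trp53inp1. For Zmat3 it gave -0.15 to 0.15 (-0.15 without MRL/lpr replicate 3, -0.03 without MRL/mpj replicate 2, -0.02 without MRL/mpj replicate 3). None of these values was called.

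Libraries with the same replicate number did not deviate together over all tested genes (correlations of -0.0409, -0.0202 and -0.0325). Deviations from a mean of 3 libraries depend on each other, so these values cannot exclude shared processing by number. With a replicate block, 3063 genes were called instead of 3950, the members called were still 2 higher and 0 lower, Zmat3 was at -0.01, and 12 other targets were higher and 5 lower. Depth limits Phlda3, whose interval spans -0.11 to 1.33, and Eda2r, which could not be tested.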
